A study of Mus musculus with 18 samples.

Results

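Myod1, Myf5, Mef2a, Mef2c, Mef2d, Six4 and Msc are transcription factor genes tied to the identity of muscle precursor cells, and they were chosen by name. They make up 7 of the 25957 genes in the count table, and all 7 had counts. The study exposed C2C12 cells, a mouse myoblast line grown here in 20% fetal bovine serum, to detaching enzymes and counted their mRNAs by BRB-seq, a barcoded method that reads the 3' ends of transcripts. The 18 libraries fell into 6 groups of 3. In 3 groups the cells were rinsed and left under 200 µL of 0.25% trypsin at 37 °C, and these groups are named by the time spent there (30 s, 3 min and 30 min). The low trypsin group got the same trypsin, which was drawn off straight away, followed by 3 min at 37 °C. In the cold-active protease group they were shaken at 4 °C for 5 min in 200 µL of that enzyme. Control cells were lysed on the plate and scraped, with no enzyme step given. All groups came from 1 cell line, and each replicate carried a lot number. What a lot stands for is not stated, so the tests weigh each difference against a spread among libraries that may be technical.

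Skeletal muscle precursors are specified by the helix-loop-helix activators Myf5 and MyoD, which pair with E proteins and bind E-box sequences in muscle genes. The homeodomain protein Six4, with its Eya partners, acts upstream of both and also on Myog, and MEF2 proteins act with MyoD once differentiation starts. Musculin, the product of Msc, and the Id, Hes and Bhlhe40/41 proteins oppose this programme, mostly by holding back MyoD or its E-protein partners.

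Total counts per library lay between 1490869 and 2480690, with 13827 to 15468 genes above 0. A count of 3, taken as the floor of detection, was worth 1.21 to 2.01 CPM, the count scaled to a common library size. Levels below are CPM scaled by the trimmed mean of M-values (TMM). The level of a gene is set only against its own level in other groups, apart from sums over marker lists of unlike length. All 12 markers of myoblasts had counts, and desmin (Des), a muscle intermediate filament, averaged 808 to 921 CPM over the groups. M-cadherin (Cdh15) averaged 110 to 134 CPM. The 5 endothelial markers summed to 0 to 1.53 CPM per library, the 5 epithelial markers to 0 to 4.31 CPM and the 6 immune markers to 0.465 to 7.06 CPM. Other lists were above that: 7 osteoblast and chondrocyte markers summed to 185 to 243 CPM, 6 neural markers to 51.5 to 80.4 CPM and 6 adipocyte markers to 38.4 to 59.8 CPM, against 2322 to 2656 CPM for the myoblast list.

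Among the members, Myf5 was the gene called as changed with treatment, at an edgeR adjusted p under 0.05. It stood 1.63-fold higher after 30 s in trypsin and 1.73-fold higher after 30 min, with every library of both groups above every control library. Under low trypsin it was 1.31-fold above control and passed narrowly, in a call that most omissions of a single library ended. After 3 min it was 1.30-fold above control and did not pass the test, and after the cold-active protease it was 1.15-fold above control and did not pass. Myod1, Mef2a, Mef2d and Six4 passed in no comparison. Mef2c and Msc, with 51 and 45 counts over all 18 libraries, were too rare to test.

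The promoter windows of Myf5, the member that passed, and of Mef2a, one that did not, are shown because they differ in the motifs they hold. RefSeq gave windows for 5 of the 7 members (GRCm38.p6), each reaching from 250 bases before to 50 after the annotated start. The Myf5 window lies at chr10:107486085-107486384 on the minus strand and the Mef2a window at chr7:67372809-67373108 on the minus strand. Capitals mark a match to the TATA box letters in Myf5 and to the MEF2 motif in Mef2a.
Myf5: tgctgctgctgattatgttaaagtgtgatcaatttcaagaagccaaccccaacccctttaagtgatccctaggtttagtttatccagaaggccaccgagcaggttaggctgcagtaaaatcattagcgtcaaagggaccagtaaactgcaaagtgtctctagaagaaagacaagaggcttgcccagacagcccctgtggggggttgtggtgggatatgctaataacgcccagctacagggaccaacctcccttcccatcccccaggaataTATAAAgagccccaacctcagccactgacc
Mef2a: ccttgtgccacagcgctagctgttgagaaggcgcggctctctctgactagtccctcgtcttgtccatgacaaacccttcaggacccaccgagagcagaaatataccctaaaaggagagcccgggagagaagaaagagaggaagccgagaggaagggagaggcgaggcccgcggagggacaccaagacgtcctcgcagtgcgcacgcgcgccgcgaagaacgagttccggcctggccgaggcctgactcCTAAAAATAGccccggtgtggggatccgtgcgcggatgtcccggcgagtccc
Both strands were searched for the E-box (CANNTG), the TATA box (TATAAA), the MEF2 motif and a Six4 motif (TCAGGTT). In Myf5 the TATAAA match began at base 21, where the annotated start is base 1, and the other motifs did not occur. Whether that match serves as a TATA box was not tested. In Mef2a the MEF2 motif began at base -2, spanned the start and was the one motif found. Of 32851 mouse windows of the same length, 72.3% held an E-box, 13.6% a TATA box, 4.07% the Six4 motif and 1.86% the MEF2 motif. The first Six4 window held the Six4 motif at base -97 on the opposite strand.

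Myf5 (ENSMUSG00000000435) encodes the earliest of the myogenic helix-loop-helix factors in the mouse embryo and marks committed myoblasts. The gene lies at chr10:107482908-107486134 on the minus strand of GRCm38, with an mRNA of 2083 bases. It drew 121 to 263 counts per library. Its level was 114, 106 and 125 CPM after 30 s in trypsin, against 93.1, 65.1 and 56.7 CPM in control. The lowest of the 30 s libraries stood above the highest control library, control replicate 1. The log2 change was 0.71 ± 0.12 (SE; 95% interval 0.47 to 0.95, n = 3 each, edgeR adjusted p = 1.39e-05). Because these are bulk lysates, a change in the RNA per cell and a change in the kinds of cells cannot be told apart.

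After 3 min in trypsin the Myf5 level was 87.8, 102 and 83.3 CPM, against 93.1, 65.1 and 56.7 CPM in control. These groups overlapped, since control replicate 1 stood above 2 of the 3 min libraries. The log2 change was 0.38 ± 0.13 (SE; 95% interval 0.13 to 0.64, n = 3 each, edgeR adjusted p = 0.0869). Without control replicate 1 it was 0.59 (adjusted p = 0.00169) and passed, so that 1 library decided this call. With each of the other libraries left out in turn it did not pass.

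After 30 min the level was 132, 106 and 128 CPM, against 93.1, 65.1 and 56.7 CPM in control, and the groups did not overlap. The log2 change was 0.79 ± 0.12 (SE; 95% interval 0.55 to 1.04, n = 3 each, edgeR adjusted p = 4.05e-06). The calls at 30 s and 30 min held with each of their 6 libraries left out in turn, with the log2 change from 0.56 to 0.91 at 30 s and from 0.64 to 0.998 at 30 min. In the 30 min libraries a list of osteoblast and chondrocyte markers summed to 238 to 243 CPM, against 185 to 194 CPM in control. It had counts for 5 of its 7 genes and 2 could be tested, of which Sox9, a cartilage factor, passed (log2 change 0.37 ± 0.10, SE, edgeR adjusted p = 0.0159). Over all tested genes 4.68% passed at 30 min. The Sox9 call was lost with 2 of the 6 libraries left out in turn (up to 0.207, without control replicate 2). The part of such markers in the Myf5 result was not tested.

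**Figure D1:**
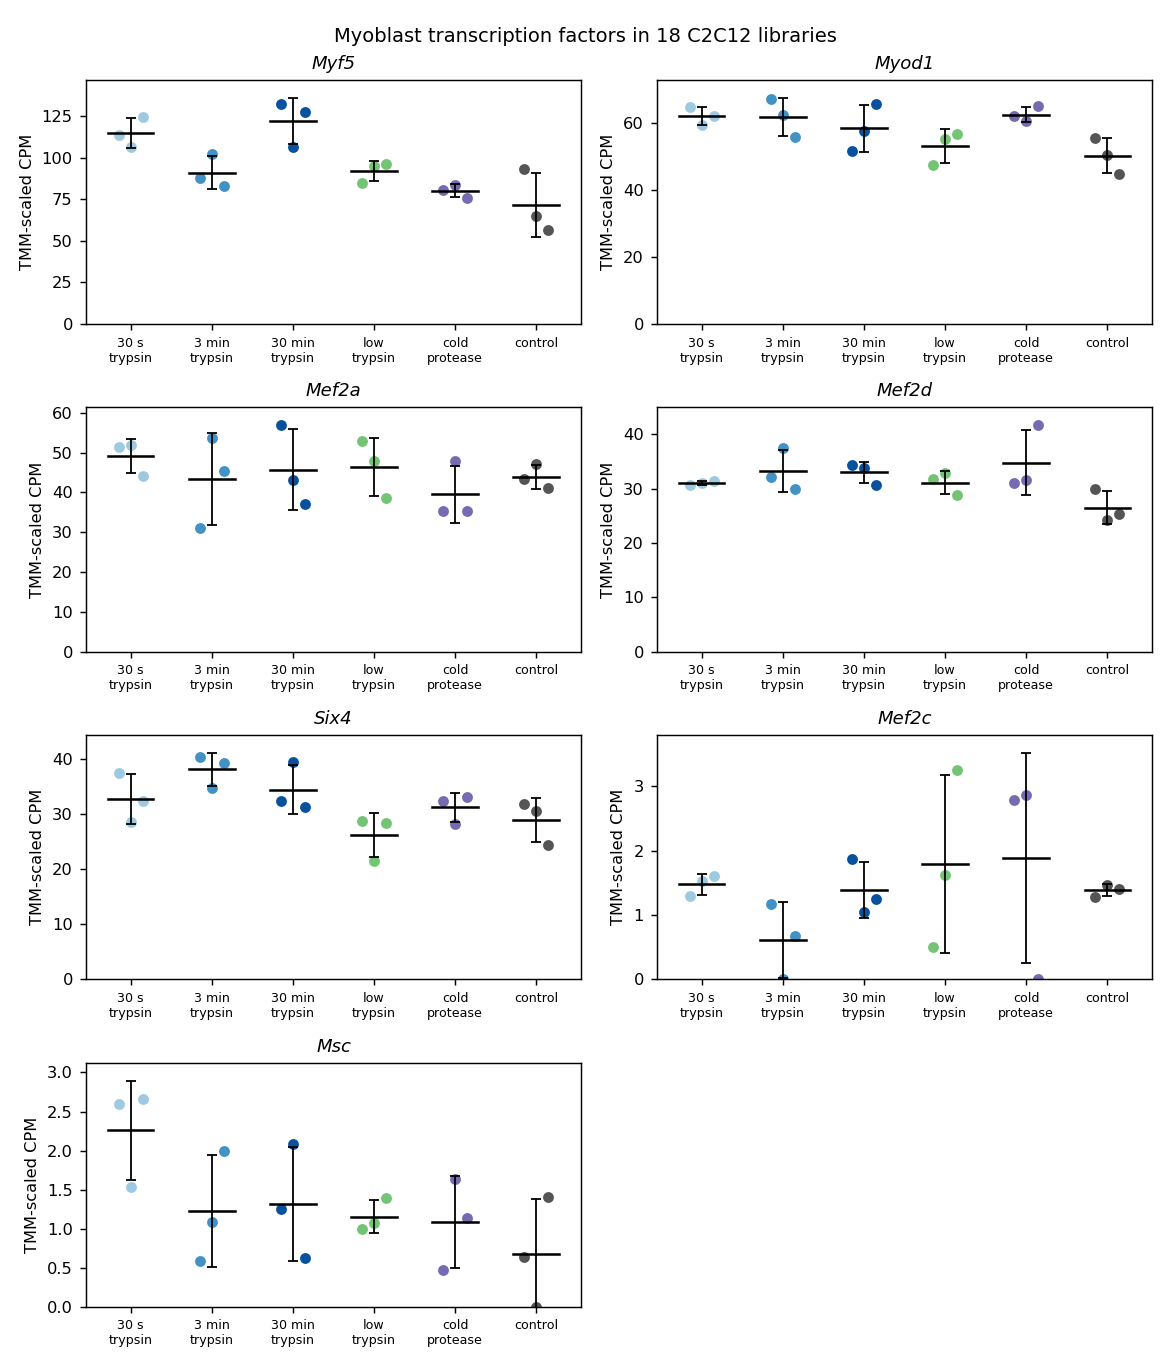
TMM-scaled CPM of the 7 members in each library (points), with group means (bars) and SD (whiskers); each panel has its own axis from 0. The 30 s and 30 min trypsin libraries of Myf5 lie at 106 CPM or more, all above the 3 control libraries, while Mef2c and Msc stay at or below 3.25 CPM.

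Across the trypsin times the Myf5 level did not move one way. Its mean was 115 ± 9.12 CPM at 30 s, 91.1 ± 9.84 CPM at 3 min and 122 ± 14.0 CPM at 30 min (SD, n = 3 each). The 3 min libraries lay below every library of both other times. From 3 min to 30 min the log2 change was 0.41 ± 0.12 (SE, edgeR adjusted p = 0.0306), and Myf5 was the 1 member of 5 tested that passed there, where 4.03% of 10075 tested genes did. This call was lost without replicate 1 or 3 of the 3 min group (adjusted p = 0.125 and 0.149) and without replicate 1 or 3 of the 30 min group (0.168 and 0.122). Between 3 min and 30 s the log2 change was -0.33 ± 0.12 and did not pass (SE, edgeR adjusted p = 0.200). No member passed between 3 min and 30 s by edgeR or DESeq2, where 1.94% of genes did by edgeR, and 1 of 5 had an unadjusted p under 0.05, as did 10.1% of genes.

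Under low trypsin the Myf5 level was 85.2, 95.3 and 96.2 CPM, against 93.1, 65.1 and 56.7 CPM in control. Control replicate 1 lay inside the range of the low trypsin libraries. The log2 change was 0.39 ± 0.12 (SE; 95% interval 0.15 to 0.64, n = 3 each, edgeR adjusted p = 0.0479), just inside the threshold of 0.05. The call was lost without control replicate 2 (adjusted p = 0.226), control replicate 3 (0.418), low trypsin replicate 2 (0.152) or low trypsin replicate 3 (0.147). Without control replicate 1 the log2 change was 0.60, and without control replicate 3 it was 0.24. With the lot as a replicate block the adjusted p was 0.0529, with the compared groups alone it was 0.0606 and with DESeq2 it was 0.107.

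Against the 3 min group, which had the same time at 37 °C with trypsin left on, the low trypsin level of Myf5 differed by a log2 value of 0.01 ± 0.12 (SE; 95% interval -0.23 to 0.25, edgeR adjusted p = 0.987). After the cold-active protease the level was 80.8, 83.9 and 75.9 CPM, against 93.1, 65.1 and 56.7 CPM in control. All 3 lay within the control range. The log2 change was 0.20 ± 0.13 (SE; 95% interval -0.05 to 0.45, n = 3 each, edgeR adjusted p = 0.718). Ordered by mean, Myf5 stood highest after 30 min and 30 s in trypsin, which overlapped each other and no other group. Low trypsin, 3 min trypsin, cold-active protease and control followed, each overlapping the next.

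**Figure D2:**
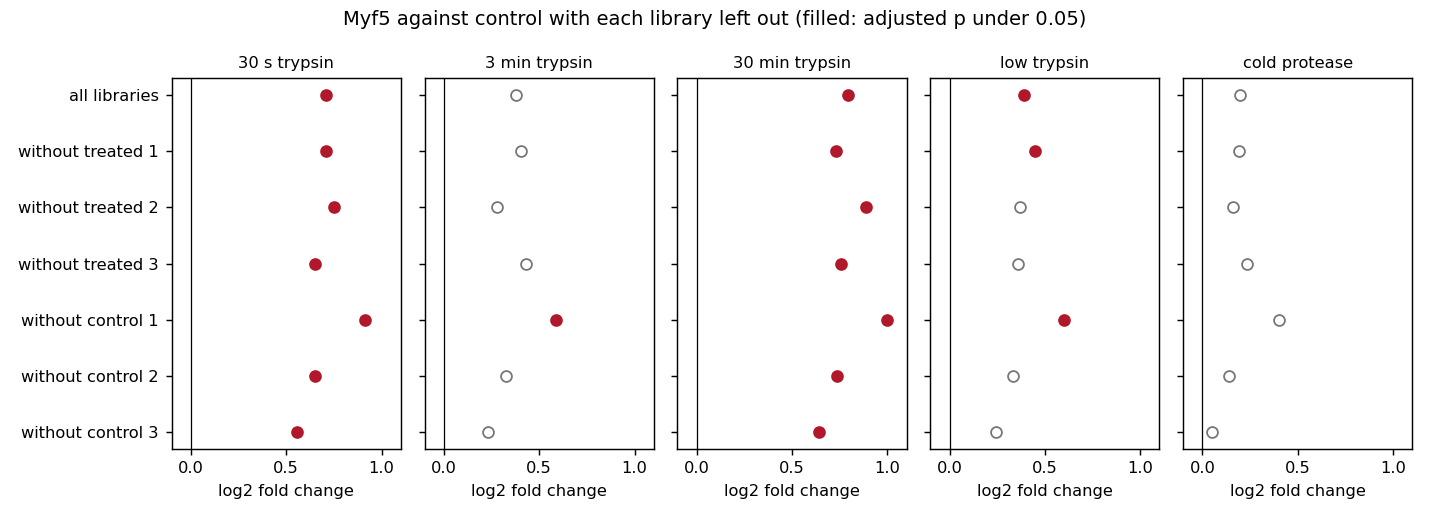
Log2 fold change of Myf5 against control for each treatment, with all libraries and with each library of the 2 groups left out in turn; filled points have an edgeR adjusted p under 0.05. The 30 s and 30 min points are all filled, while the low trypsin call is lost in 4 of 6 cases and the 3 min call appears only without control replicate 1.

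The members' calls stand here beside those over all genes. After 30 s in trypsin 1 of 5 tested members passed the edgeR test at an adjusted p under 0.05, where 6.94% of tested genes did. At 30 min 1 of 5 passed, where 4.68% of genes did, and under low trypsin 1 of 5, where 5.19% did. All 3 of these calls were Myf5, and 1 gene of 5 is too few to set the members apart from other genes. At 3 min none passed by edgeR or DESeq2, where 3.96% of genes passed by edgeR. An unadjusted p under 0.05 was found there for 4 of 5 members and for 12.8% of all tested genes. After the cold-active protease none passed by either tool, where 0.665% of genes passed by edgeR. An unadjusted p under 0.05 was found there for 2 of 5 members and for 8.79% of all tested genes. These 5 comparisons share the same 3 control libraries, so a low control level enters all of them.

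The members' median log2 change against control was 0.24 at 30 s, 0.35 at 3 min, 0.27 at 30 min, 0.09 under low trypsin and 0.20 after the cold-active protease. Over all tested genes the median lay between -0.0029 and 0.0091. The tested members' fitted log2 changes were above 0 in 5 of 5 genes at 30 s and at 30 min and in 4 of 5 in each other treatment. Over all tested genes 49.4 to 52.1% were above 0 in these comparisons, which share the same control libraries. Over all 6 groups at once, Myf5 was the member that passed edgeR's F test (adjusted p = 1.52e-06), where 11.5% of genes passed. Myod1 (0.239), Six4 (0.202), Mef2d (0.537) and Mef2a (0.768) did not pass that edgeR test at these adjusted p-values.

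**Figure D3:**
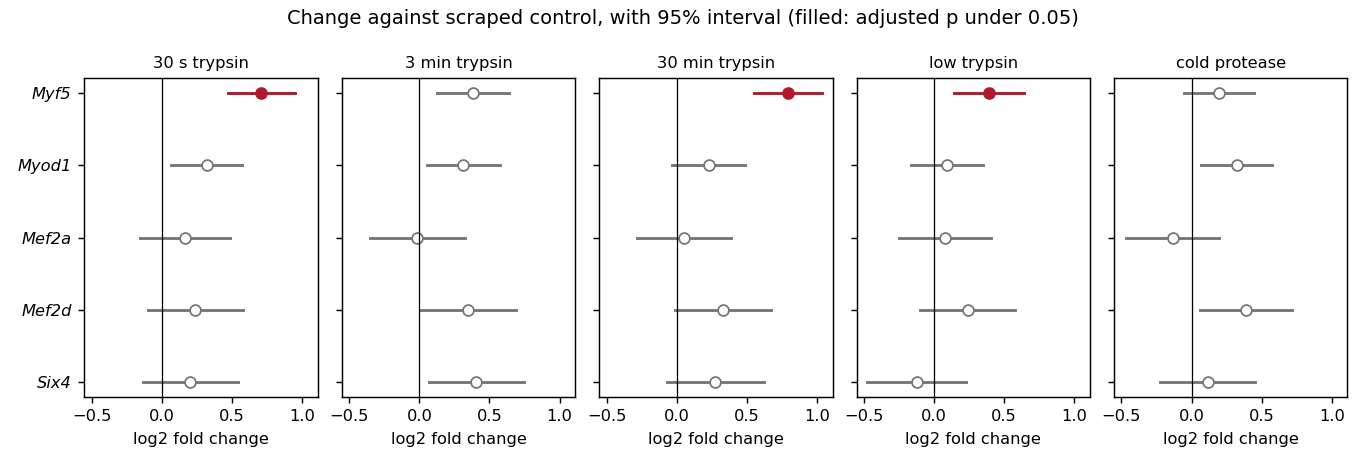
Log2 fold change against control, with 95% intervals, of the 5 tested members in each treatment; filled points have an edgeR adjusted p under 0.05. The filled points are Myf5 after 30 s (0.71), 30 min (0.79) and low trypsin (0.39).

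Myod1 (ENSMUSG00000009471; chr7:46376474-46379099, plus strand, mRNA of 1861 bases) encodes MyoD, the factor that can turn fibroblasts into muscle cells. It drew 83 to 150 counts per library. Its level was 64.8, 59.6 and 62.3 CPM after 30 s in trypsin, against 55.5, 50.5 and 45.0 CPM in control. It was 67.3, 62.5 and 56.0 CPM after 3 min and 51.9, 57.8 and 65.8 CPM after 30 min. The 30 s and 3 min libraries lay above every control library, the 3 min group by less than 1 CPM, and the 30 min libraries overlapped control.

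The log2 change of Myod1 was 0.32 ± 0.13 at 30 s (SE; 95% interval 0.07 to 0.57, edgeR adjusted p = 0.141). It was 0.31 ± 0.13 at 3 min (adjusted p = 0.237) and 0.23 ± 0.13 at 30 min (adjusted p = 0.408) by the same test. The cold-active protease libraries of Myod1 stood at 62.2, 60.6 and 65.1 CPM, all above control; the log2 change, 0.32 ± 0.13, did not pass (SE, edgeR adjusted p = 0.363). Low trypsin gave 47.5, 55.5 and 56.7 CPM, which overlapped control, and changed by 0.09 ± 0.13 on the log2 scale (SE; 95% interval -0.17 to 0.35, edgeR adjusted p = 0.810). In the order of means each neighbouring pair of groups overlapped, with control lowest. The intervals at 30 s, at 3 min and after the cold-active protease lay above 0, but the tests over 10075 genes did not call Myod1.

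Within a library, the number of Myf5 counts per Myod1 count does not depend on the depth or on TMM scaling. It is not taken as a ratio of molecules, and it was chosen after the values were seen, so it is given with no test. It was 1.75, 1.79 and 2.00 after 30 s in trypsin, 1.30, 1.63 and 1.49 after 3 min and 2.55, 1.84 and 1.94 after 30 min. Low trypsin gave 1.79, 1.72 and 1.70, the cold-active protease 1.30, 1.39 and 1.17, and control 1.68, 1.29 and 1.26. Every library at 30 s, at 30 min and under low trypsin lay above the control range, and control replicate 1 lay apart from the other 2 control libraries. The 3 min libraries lay within the control range, and those of the cold-active protease overlapped it.

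**Figure D4:**
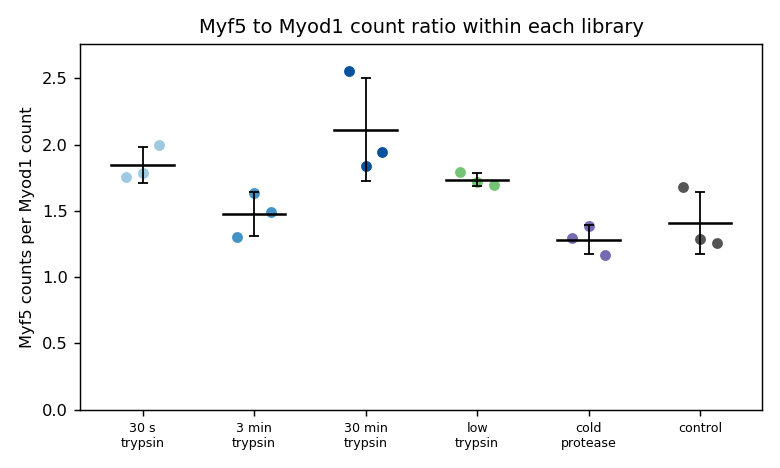
Myf5 counts per Myod1 count in each library (points), with the group mean (bar) and SD (whisker). The 30 s, 30 min and low trypsin libraries lie at 1.70 or more, above the highest control library at 1.68.

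Mef2a, Mef2d and Mef2c encode MADS-box factors that bind muscle gene promoters together with MyoD and are held back by class IIa histone deacetylases. Mef2a (ENSMUSG00000030557; chr7:67231163-67372858, minus strand) drew 53 to 119 counts per library. Its level was 51.4, 52.0 and 44.2 CPM after 30 s in trypsin, 31.0, 53.8 and 45.3 CPM after 3 min and 56.9, 43.3 and 37.0 CPM after 30 min. Low trypsin gave 53.0, 47.9 and 38.6 CPM, the cold-active protease 35.3, 47.9 and 35.4 CPM and control 43.4, 47.1 and 41.2 CPM. Every treatment overlapped control. The spread within treatments was wide next to the control SD of 2.97 CPM, at 11.5 CPM for 3 min and 10.2 CPM for 30 min.

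The log2 changes of Mef2a were 0.17 ± 0.16 at 30 s, -0.01 ± 0.17 at 3 min and 0.05 ± 0.17 at 30 min (SE). They were 0.08 ± 0.16 under low trypsin and -0.14 ± 0.16 after the cold-active protease. The lowest edgeR adjusted p of these was 0.698. Leaving out 1 library turned the sign of the 3 min, 30 min and low trypsin values, which all lay near 0. Mef2a overlaps Lysmd4 on the opposite strand, which held 126 counts in all, and whether strand was used in counting is not given in the sources used here.

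Mef2d (ENSMUSG00000001419; chr3:88142372-88172086, plus strand) drew 45 to 77 counts per library, and 1700113A16Rik, which overlaps it on the opposite strand, held 12 in all. Its level was 30.7, 31.1 and 31.4 CPM after 30 s in trypsin, against 30.0, 24.3 and 25.3 CPM in control. It was 32.2, 37.5 and 30.0 CPM after 3 min and 34.4, 33.9 and 30.7 CPM after 30 min. The lowest 3 min library and the highest control library were equal at this precision, and the 30 s and 30 min libraries lay above control.

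The cold-active protease gave 31.1, 31.5 and 41.7 CPM of Mef2d, all above control, and the largest log2 change of this gene, 0.39 ± 0.16 (SE; 95% interval 0.06 to 0.72, edgeR adjusted p = 0.445). Low trypsin gave 31.7, 32.8 and 28.8 CPM and overlapped control. The log2 changes were 0.24 ± 0.17 at 30 s, 0.35 ± 0.17 at 3 min, 0.33 ± 0.17 at 30 min and 0.24 ± 0.17 under low trypsin (SE). Their edgeR adjusted p-values lay between 0.334 and 0.554. Control had the lowest mean of the 6 groups, 26.5 ± 3.04 CPM (SD, n = 3).

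Mef2c (ENSMUSG00000005583; chr13:83504034-83667080, plus strand), the family member that comes up as myoblasts differentiate, drew 0 to 7 counts per library. It summed to 9, 3 and 7 counts after 30 s, 3 min and 30 min in trypsin, 11 under low trypsin, 13 after the cold-active protease and 8 in control. One library of 3 min trypsin and one of the cold-active protease held 0 counts, and the libraries above 3 counts were 1 of low trypsin and 2 of the cold-active protease, with 6 or 7 counts each. No difference between groups was detectable at this depth: without the filter on low counts the lowest edgeR adjusted p was 0.838.

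Six4 (ENSMUSG00000034460; chr12:73099609-73113456, minus strand) encodes a homeodomain factor that acts on Myf5, Myod1 and Myog in the mouse embryo. It drew 40 to 87 counts per library. Its level was 37.6, 28.5 and 32.5 CPM after 30 s in trypsin, 40.4, 34.8 and 39.3 CPM after 3 min and 32.5, 39.6 and 31.3 CPM after 30 min. Low trypsin gave 28.7, 21.5 and 28.3 CPM, the cold-active protease 32.5, 28.3 and 33.1 CPM and control 31.9, 30.6 and 24.4 CPM. The 3 min libraries lay above every control, low trypsin and cold-active protease library, and the other treatments overlapped control.

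Against control, the log2 change of Six4 at 3 min was 0.41 ± 0.17 (SE; 95% interval 0.07 to 0.75, edgeR adjusted p = 0.245). It was 0.20 ± 0.17 at 30 s, 0.27 ± 0.17 at 30 min, -0.12 ± 0.18 under low trypsin and 0.11 ± 0.17 after the cold-active protease, and none of these passed. Between low trypsin and 3 min trypsin the log2 difference was -0.53 ± 0.17 (SE; 95% interval -0.87 to -0.19, edgeR adjusted p = 0.0633), which missed the threshold. In that comparison 4.36% of genes passed by edgeR and no member did by edgeR or DESeq2. An unadjusted p under 0.05 was found for 1 of 5 members and for 12.8% of genes. Between the cold-active protease and 3 min trypsin 3.71% of genes passed and no member did by either tool, at unadjusted p-values of 0.0822 or more.

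Msc (ENSMUSG00000025930; chr1:14753346-14755992, minus strand) encodes musculin, a helix-loop-helix repressor that competes with MyoD. It summed to 14, 6 and 7 counts after 30 s, 3 min and 30 min in trypsin, 7 under low trypsin, 7 after the cold-active protease and 4 in control, with 0 to 6 counts per library. Differences at this depth were not detectable: without the filter on low counts the lowest edgeR adjusted p was 0.739. Gm9947, on the opposite strand, overlaps it and held 12 counts.

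Around the members, other muscle regulators were examined from a list of 19 myogenic, paired-box, homeodomain and Eya factors, of which 15 had counts and 7 could be tested. None passed edgeR or DESeq2 in any of the 9 comparisons, with 0 to 3 of 7 at an unadjusted p under 0.05. Over all tested genes 0.665 to 6.94% passed by edgeR in these comparisons, and 8.79 to 16.4% had an unadjusted p under 0.05. The list's median log2 change against control ran from -0.14 under low trypsin to 0.0076 at 30 min. Myog, encoding myogenin, the factor that starts terminal differentiation, averaged 27.7 ± 3.34, 28.8 ± 3.44 and 29.5 ± 10.2 CPM after 30 s, 3 min and 30 min in trypsin and 29.3 ± 3.55 CPM in control (SD, n = 3 each). Its largest log2 difference from control, -0.23 ± 0.20 under low trypsin (SE), did not pass (edgeR adjusted p = 0.657). Eya4, a coactivator of Six4, averaged 72.9 ± 5.00, 74.5 ± 6.03 and 73.4 ± 6.79 CPM after 30 s, 3 min and 30 min and 58.7 ± 1.85 CPM in control (SD, n = 3 each). Its log2 changes of 0.31, 0.35 and 0.32 did not pass either (edgeR adjusted p = 0.102, 0.0980 and 0.115). Pax7 and Pax3, markers of quiescent and embryonic precursors, and Myf6, a late myogenic factor, had too few counts to test.

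Among 20 E proteins and helix-loop-helix or zinc-finger antagonists, 16 were tested. By edgeR 1 passed against control at 30 s, 1 at 3 min, 4 at 30 min and 2 under low trypsin. Over all tested genes 6.94%, 3.96%, 4.68% and 5.19% passed there. The calls were of Hes1, Id3, Bhlhe40 and Bhlhe41, all higher, and the list holds such repressors and inhibitors by choice. Hes1, a Notch target that represses myogenic genes, stood at 331, 334 and 290 CPM after 30 min in trypsin, against 43.4, 60.7 and 53.4 CPM in control. Its groups did not overlap in any trypsin treatment, and its log2 change was 0.66 ± 0.12 at 30 s, 0.65 ± 0.12 at 3 min, 2.58 ± 0.10 at 30 min and 0.53 ± 0.12 under low trypsin (SE; edgeR adjusted p = 4.95e-05, 0.000171, 1.82e-26 and 0.00250). After the cold-active protease it was 0.12 ± 0.13 and did not pass (SE, edgeR adjusted p = 0.844).

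Id3, which binds E proteins and keeps them from MyoD and Myf5, stood at 933, 856 and 877 CPM after 30 min, against 737, 661 and 665 CPM in control. The groups did not overlap (log2 change 0.37 ± 0.05, SE, edgeR adjusted p = 9.08e-07). Bhlhe41, a repressor of MyoD activity in mouse muscle cells, stood at 141, 116 and 102 CPM at 30 min, against 72.1, 91.8 and 83.9 CPM in control. Its log2 change was 0.52 ± 0.11 (SE, edgeR adjusted p = 0.00145), and without 30 min replicate 1 the adjusted p was 0.0561.

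Bhlhe40, its close relative, passed narrowly at 30 min (log2 change 0.47 ± 0.15, SE, edgeR adjusted p = 0.0458) and under low trypsin (0.46 ± 0.14, adjusted p = 0.0448). DESeq2 called neither. Leaving out 1 library ended these calls in 5 of 6 cases at 30 min (up to 0.241, without control replicate 3) and in 4 of 6 under low trypsin (up to 0.291, without low trypsin replicate 3). The list's median log2 change was 0.07 at 30 min and 0.14 at 30 s. After the cold-active protease none of the 16 passed by edgeR or DESeq2 (2 had an unadjusted p under 0.05). Over all tested genes 0.665% passed by edgeR there, and 8.79% had an unadjusted p under 0.05.

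**Figure D5:**
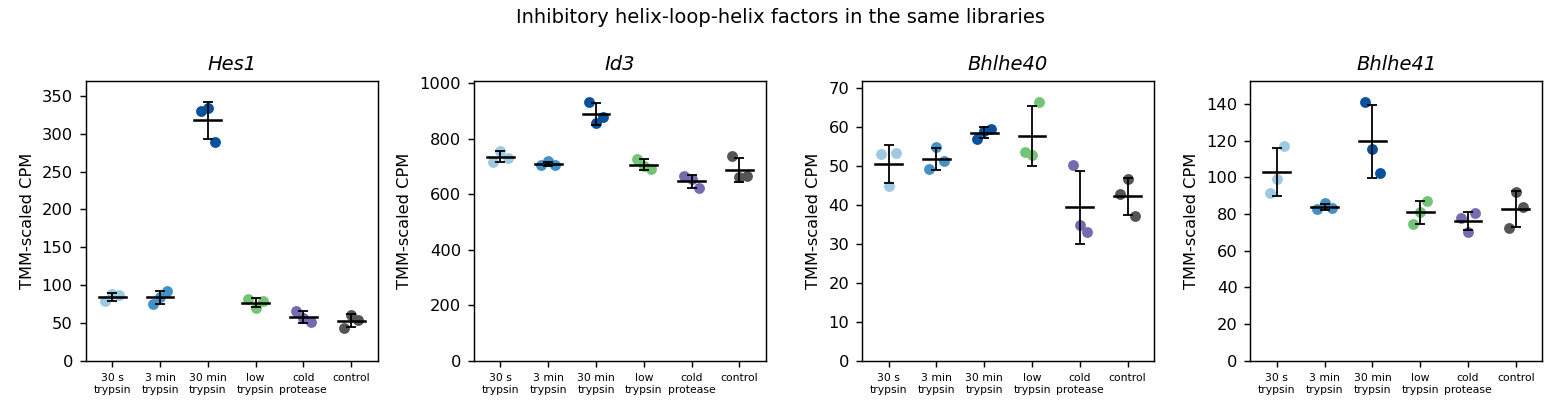
TMM-scaled CPM of Hes1, Id3, Bhlhe40 and Bhlhe41 in each library (points), with group means (bars) and SD (whiskers); each panel has its own axis from 0. The 30 min trypsin libraries of Hes1 lie at 290 CPM or more, against 60.7 CPM or less in control.

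Of 23 genes for MEF2 cofactors and partners, 19 were tested. Srf, encoding serum response factor, a MADS-box relative of MEF2, stood at 44.5, 51.5 and 46.8 CPM after 30 s in trypsin and 44.6, 47.4 and 50.6 CPM under low trypsin, against 32.5, 30.6 and 21.6 CPM in control. Srf was the 1 gene of the list that passed in each treatment, where 6.94% and 5.19% of all tested genes did. Neither treatment overlapped control (log2 change 0.77 ± 0.18 in both, SE, edgeR adjusted p = 0.00222 at 30 s and 0.00339 under low trypsin). Without control replicate 3 these values were 0.0683 and 0.0851. At 30 min its level was 13.7, 27.6 and 33.8 CPM, which overlapped control and did not pass (edgeR adjusted p = 0.808). None of the 19 passed at 3 min, at 30 min or after the cold-active protease by edgeR or DESeq2, with 2, 2 and 1 at an unadjusted p under 0.05. Over all tested genes 3.96%, 4.68% and 0.665% passed by edgeR there, and 12.8%, 16.4% and 8.79% had an unadjusted p under 0.05.

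Of 27 muscle differentiation genes, many of them targets of MyoD and MEF2, 19 were tested. Mylpf, a fast-muscle myosin light chain, was lower: it stood at 58.3, 62.1 and 65.5 CPM after 30 s in trypsin and 41.0, 58.1 and 72.6 CPM after 3 min, against 96.3, 111 and 93.7 CPM in control. Under low trypsin it stood at 80.2, 67.3 and 59.9 CPM, also below every control library. Its log2 changes were -0.70 ± 0.13, -0.82 ± 0.13 and -0.54 ± 0.12 in these 3 treatments (SE; edgeR adjusted p = 4.15e-05, 7.08e-06 and 0.00255). It was the 1 gene of the list that passed in each, where 6.94%, 3.96% and 5.19% of all tested genes did. At 30 min and after the cold-active protease its changes, -0.29 ± 0.12 and -0.36 ± 0.12, did not pass (SE; edgeR adjusted p = 0.207 and 0.236).

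At 30 min 3 of the 19 tested genes of that list passed, where 4.68% of all tested genes did. Acta1, skeletal actin, was lower (log2 change -0.48 ± 0.12, SE, edgeR adjusted p = 0.00911). Cdkn1a, a cell cycle inhibitor that MyoD induces, was higher (0.27 ± 0.07, adjusted p = 0.0168), as was Tnnt2, cardiac troponin T (0.26 ± 0.08, adjusted p = 0.0396). Leaving out 1 library ended these calls in 2, 3 and 4 of 6 cases. The adjusted p then reached 0.118 for Acta1 (control replicate 1 left out), 0.271 for Cdkn1a (30 min replicate 2) and 0.356 for Tnnt2 (30 min replicate 1). DESeq2 did not call Tnnt2. The list's median log2 change against control was -0.20, -0.22 and -0.10 at 30 s, 3 min and 30 min, -0.27 under low trypsin and -0.046 after the cold-active protease, against medians near 0 over all genes.

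The genes most like each tested member were found by Pearson's r of log2 CPM over the 18 libraries, among 8294 genes averaging 10 CPM or more. Libraries of one group share a treatment and a depth range, so these values describe the 18 libraries and carry no p. For Myf5 they were Tle5, a member of the Groucho family (r = 0.82, Spearman's rho = 0.85), Ptms, parathymosin (0.80 and 0.82), and Oaz1, ornithine decarboxylase antizyme (0.77 and 0.76). These genes were picked for following Myf5 in the same libraries, so their levels are given with no test. Tle5 averaged 1032, 948 and 1025 CPM after 30 s, 3 min and 30 min in trypsin, 933 CPM under low trypsin, 945 CPM after the cold-active protease and 925 CPM in control. Oaz1 averaged 600.0, 545 and 622 CPM at the 3 trypsin times, 526 CPM under low trypsin, 537 CPM after the cold-active protease and 499.7 CPM in control.

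For Myod1 the likest genes were Kif23, a kinesin of cell division (r = 0.81), Samd1 (0.78) and Chtf8 (0.77). For Six4 they were Adamts1, a secreted metalloprotease (0.82), Ssr2 (0.78) and Hpcal1 (0.73). For Mef2d they were Lrp1, an endocytic receptor (0.81), Hspg2, perlecan (0.78), and Mblac2 (0.74). For Mef2a, Wdr41, Il12rb1 and Supt7l shared an r of 0.72. Among the members, r ran from -0.41 for Myod1 with Mef2a to 0.52 for Myod1 with Mef2d, and Myf5 with Myod1 gave 0.46.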

How the data were processed

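The expression of 7 transcription factor genes was analysed in 18 BRB-seq libraries of C2C12 cells in 6 groups of 3. The authors deposited a table of raw counts per gene, a table of counts divided by size factors (a normalised signal) and a table of CPM. The CPM table equalled CPM recomputed from the deposited counts in 467226 of 467226 cells (tolerance 1e-06). Per the submitters' processing notes, featureCounts 2.0.1 and HISAT2 2.1.0 were used with GRCm38, and cutadapt 2.6, DESeq2 1.28.1, UMI-tools 1.0.1 and Trim Galore 0.6.6 are also named; their settings, and whether strand was used, are not given in the sources used here. Counts near the 3' end do not grow with transcript length, so CPM were not divided by length.

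Counts were tested with edgeR 4.0.16 (R 4.3.3; quasi-likelihood F test, TMM scaling, default filterByExpr) in 1 fit of all 18 libraries with no covariate, and p-values were adjusted by Benjamini-Hochberg over 10075 genes, which held 99.4 to 99.5% of the counts. The filter passed 5 of the 7 members. SE and 95% intervals come from that fit, and a call is an adjusted p under 0.05. The fit was checked on simulated counts. Any 2 replicates of a group differed by more than counting noise, so none was merged. Log2 CPM for likeness used a prior count of 2.

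The members and gene lists were chosen with earlier results of these data known. Genes named were the 7 members, up to 4 tested genes with the lowest F-test p in each muscle list, and for each tested member the 3 genes of highest r. Des, Cdh15, Myog, Pax3, Pax7, Myf6, Sox9, Notch2, Sdc4 and Chrna1 were named outside that rule, as markers or pathway members, after their values were seen. Positions and mRNA lengths come from GENCODE M21, which matched 25957 of 25957 genes. Alternatives were DESeq2 1.42.0, other scalings and filters, a replicate block, an mRNA-length correction, the compared groups alone and each library left out.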

Additional observations from a re-analysis of the deposited data

Results flagged for a closer look

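Myf5 differed between 2 times in trypsin: its level averaged 122 ± 14.0 CPM at 30 min and 91.1 ± 9.84 CPM at 3 min (SD, n = 3 each), and the difference, which is also the difference between their changes against the shared control, was 0.41 on the log2 scale (edgeR adjusted p = 0.0306). All 3 libraries at 30 min lay above all 3 at 3 min. The call was lost with any of 4 of the 6 libraries left out, at adjusted p-values up to 0.168.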

How the results depend on the processing

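The log2 changes of the members against control kept their direction under the 9 other settings that used all libraries. The low trypsin change of Myf5 was 0.39 with a replicate block (adjusted p = 0.0529), 0.40 with the compared groups alone (0.0606) and 0.39 with DESeq2 (0.107), which left 0 members called there. Same-lot correlations of deviations lay between -0.06 and 0.07, and 9 of 18 libraries lay closest to their own lot number. No chance level was worked out for that count, so it does not settle whether lots pair the libraries. The replicate block changed no other member's call. DESeq2 called 64 genes higher at 3 min against 102 by edgeR, 130 higher at 30 min against 209, 31 lower for low trypsin against 3 min trypsin against 58, and 50 lower for the cold-active protease against 3 min trypsin against 87. With the mRNA length trend removed 194 genes were lower at 3 min against 297, and 187 with the replicate block as well. With each library left out in turn, the log2 change of Myf5 ranged from 0.23 to 0.59 at 3 min, 0.24 to 0.60 under low trypsin and 0.35 to 0.52 for 30 min against 3 min trypsin, and 0 to 1 members were called in each. Values near 0 turned sign: Mef2a ranged from -0.22 to 0.18 at 3 min, -0.12 to 0.17 at 30 min and -0.031 to 0.20 under low trypsin, and Six4 from -0.0038 to 0.19 after the cold-active protease. Genes called over the same omissions ranged from 50 to 99 higher at 3 min, 126 to 159 higher and 174 to 238 lower at 30 min, 118 to 168 lower under low trypsin, and 9 to 19 higher and 26 to 35 lower after the cold-active protease. Between treatments they ranged from 29 to 42 higher for 3 min against 30 s trypsin, 75 to 96 lower for 30 min against 3 min, 23 to 63 lower for low trypsin against 3 min, and 43 to 71 lower for the cold-active protease against 3 min. The cause of these shifts was not tested. Depth limits Mef2c and Msc, which lay near the floor of 3 counts, and the other members rest on 40 to 263 counts per library.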

Other observations

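Outside the members, 10 genes of a 12-gene myoblast marker list were tested, and 0 or 1 passed in each treatment against control, where 0.665 to 6.94% of all tested genes did. Notch2, a receptor of the Notch pathway, was higher after 30 min in trypsin (log2 change 0.41 ± 0.08, SE, edgeR adjusted p = 0.000566) and after the cold-active protease (0.39 ± 0.08, adjusted p = 0.00371) than in control. The cold-active protease call was lost with 3 of the 6 libraries left out in turn (up to 0.0859, without control replicate 3). Sdc4, encoding the surface proteoglycan syndecan-4, was higher at 30 s (0.22 ± 0.06, edgeR adjusted p = 0.0210), a call lost with 3 of the 6 libraries left out (up to 0.231, without 30 s replicate 2).

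Between treatments, Notch2 was also higher at 30 min than at 3 min in trypsin (0.33 ± 0.08, SE, edgeR adjusted p = 0.00749) and after the cold-active protease than after 3 min in trypsin (0.31 ± 0.08, adjusted p = 0.0118), and these calls were lost with 2 and 3 of the 6 libraries left out. Des was lower under low trypsin than after 3 min in trypsin (log2 difference -0.19 ± 0.05, SE, edgeR adjusted p = 0.0157), a call lost with 4 of the 6 libraries left out (up to 0.0832). Chrna1, an acetylcholine receptor subunit, was lower after the cold-active protease than after 3 min in trypsin (-0.28 ± 0.09, SE, edgeR adjusted p = 0.0467), and the call was lost with 5 of the 6 libraries left out and with DESeq2.

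In the same fit, Hes1 was lower after the cold-active protease than after 3 min in trypsin (log2 difference -0.52 ± 0.12, SE, edgeR adjusted p = 0.00253), with 65.5, 56.5 and 50.8 CPM against 75.0, 83.7 and 92.0 CPM. In that comparison 3.71% of all tested genes passed by edgeR. Srf was lower in the same comparison (-0.73 ± 0.20, edgeR adjusted p = 0.0167), a call lost with 4 of the 6 libraries left out (up to 0.226, without 3 min replicate 1). Mylpf was higher there (0.47 ± 0.14, SE, edgeR adjusted p = 0.0334), a call lost with 5 of the 6 libraries left out. It was also higher at 30 min than at 3 min in trypsin (0.54 ± 0.14, adjusted p = 0.0114), a call lost with 2 of the 6. Both Mylpf calls were lost with the mRNA length trend removed. From 3 min to 30 min 4.03% of all tested genes passed. There Hes1 was higher (log2 difference 1.93 ± 0.10, SE, edgeR adjusted p = 5.49e-22). So were Id3 (0.32 ± 0.05, adjusted p = 1.32e-05) and Bhlhe41 (0.51 ± 0.11, adjusted p = 0.00230). Mapk14 was lower (-0.53 ± 0.14, adjusted p = 0.0119). Crebbp was higher at 3 min than at 30 s (0.34 ± 0.09, adjusted p = 0.0433). Leaving out 1 library ended the Bhlhe41, Mapk14 and Crebbp calls in 1, 4 and 5 of 6 cases.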
